A study of Drosophila melanogaster with 53 samples.

Results

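The genes described here encode the subunits of the proteasome of Drosophila melanogaster: all genes whose symbol starts with Prosalpha, Prosbeta, Rpn or Rpt. The rule found 34 genes among the 11204 genes of the tables, 14 of the core particle (Prosalpha and Prosbeta) and 20 of the regulatory particle (Rpn and Rpt). The rule reads symbols, not measured values. The male ageing table lists 34 of them among 10657 genes, 33 appear among the 10222 genes of the Atg8a and daw 3'UTR libraries, and 34 among the 10258 genes of the miR-252 and foxo libraries.

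The proteasome degrades proteins that carry ubiquitin chains. Its core particle is a hollow stack of rings in which the alpha subunits gate the entrance and the beta subunits form the chamber, with the proteolytic sites on Prosbeta1 (caspase-like), Prosbeta2 (trypsin-like) and Prosbeta5 (chymotrypsin-like). The regulatory particle caps the core: its base holds the ATPases Rpt1 to Rpt6, which unfold substrates, the scaffold subunits Rpn1 and Rpn2 and the ubiquitin receptors Rpn10 and Rpn13, and its lid holds the deubiquitinase Rpn11 and the structural subunits around it. In flies, as in mammals, subunit genes tend to be expressed together, and the Cap-n-Collar factor cnc is a known activator of them. In muscle the ubiquitin-proteasome system and autophagy are the main routes of protein breakdown.

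The series measured polyA RNA by sequencing in 53 samples of 19 groups, and 39 libraries of 13 groups come with values per library, 3 per group. Wild-type (WT) flies were of line 5905 (w1118). In the male set WT muscle was taken at 3, 15, 30 and 45 d after eclosion. All other muscle libraries came from females at 3 d. One female set compared atg8ac320/c320, daw-3'UTRc82/c82; foxoc431/c431 and daw-3'UTRc82/c82 flies with WT. The other compared dawc458/+; mir-252c328 foxoc431/mir-252c328 foxoc431 flies (daw/+ triple mutants below), mir-252c328 foxoc431/mir-252c328 foxoc431 flies (miR-252 foxo double mutants), foxoc431/c431 flies and mir-252c328/c328 flies with WT. A further 3 foxoc431/c431 and 3 WT female libraries came from axenic culture on antibiotic medium and are known here only through the authors' deposited comparison. Precipitates of HA-tagged Ago1, the Argonaute protein that carries microRNAs, and their inputs came from whole flies of both sexes that carried pBID-UAS-HA-Ago1/+ together with the driver GS-tubulin-GAL4/+, 2 precipitates and 2 inputs at 3 d and again at 30 d. The labels give neither the lesion in each allele, nor the muscles dissected, nor how many flies entered a sample, nor whether replicates were separate cultures, so p-values measure the spread between these libraries, which may be technical. Daw (dawdle) is an Activin-like ligand, foxo the transcription factor restrained by insulin signalling, and Atg8a the ubiquitin-like protein of autophagosomes.

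Depth ran from 2358162 to 4078819 reads per library. All listed muscle markers were present in every group, 8 in the male groups, where wupA had no row, and 9 in the female groups. Atg8a stood at 45.4, 43.0 and 60.4 normalised counts in Atg8a mutants, against 3569, 3445 and 2421 in WT. The foxo transcript was not lower in the libraries labelled foxo (717, 715 and 828 normalised counts, against 596, 534 and 617 in WT), so it does not check that label, and mir-252 has no row to check. Tests of a whole table used limma on log2(normalised count + 1), with p-values adjusted over all its tested genes, and a gene counted as called at an adjusted p below 0.05. In bulk muscle RNA, fewer cells of a type and less RNA per cell cannot be told apart.

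Of the 34 genes, 31 passed a mean of 10 normalised counts in every table: 13 of the core particle (6 alpha, 7 beta) and 18 of the regulatory particle (10 base, 8 lid). The other 3 are paralogs, whose products resemble Prosbeta2, Rpt3 and Rpt6 and whose names end in R or R2. Rpt3R had 1, 1 and 1 reads at 3 d, 2, 3 and 3 at 15 d, 8, 4 and 9 at 30 d and 21, 7 and 7 at 45 d in male muscle, and 0 to 6 reads in every female library. Rpt6R had at most 6 reads in any library and Prosbeta2R2 at most 5, and neither can be compared at this depth. Markers of testis summed to between 1.81 and 98.4 normalised counts at 45 d and between 2.88 and 39.6 at 3 d in males, and their part in the Rpt3R reads was not tested. Prosalpha1 was not analysed here. The members lie on every major chromosome arm, 12 on 3R, 9 on 2R, 5 on 3L and 4 each on 2L and X (Ensembl BDGP6 annotation, the dm6 assembly that the submitters' notes name). Of the 31 tested genes, 14 overlap a gene on the other strand and Rpt1 overlaps CG17985 on its own strand. The labels do not say whether counting used strand, so reads of such neighbours cannot be told apart.

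Core genes were expressed above regulatory genes per length. In the WT females of the miR-252 and foxo set, the median core gene had 240 normalised counts per kb of exon and the median regulatory gene 158. For WT females sequenced beside the Atg8a mutants these medians were 157 (core) and 120 (regulatory) normalised counts per kb. Prosalpha6 was the lowest core gene per kb in every group of the male and the miR-252 and foxo tables, at 156 normalised counts per kb in the WT females of that last table. Prosbeta5 was the highest core gene per kb in males at 30 and 45 d, with 437 and 582 normalised counts per kb. Among regulatory genes the ATPase gene Rpt3 was the highest per kb at the same ages, with 314 and 376 normalised counts per kb. The particles kept a narrow ratio to each other: core genes made up 37.9% to 41.2% of the summed normalised counts of all 31 members in 11 male libraries, 34.9% to 37.2% in libraries sequenced beside the Atg8a mutants and 35.7% to 39.9% in those sequenced beside the miR-252 mutants. One male library, replicate 3 at 3 d, stood outside with 50.9%.

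That library has to be described before the male ages, because it holds the youngest time point. Against the mean of the other 3 d libraries its log2 level was 1.05 higher for the median core gene and 0.46 higher for the median regulatory gene. It was the highest of the 3 libraries for 27 of 31 members, among them all 13 core genes, and the lowest for Rpn1 and Rpn2. Over all tested genes its excess followed transcript length. The median excess on the log2 scale was 1.29 for 1093 genes under 1000 bp of exon, 0.41 for 1233 genes of 1500 to 2000 bp and -1.56 for 1323 genes of 5000 bp and more. The members followed the same order, with a median of 1.11 for 9 genes under 1000 bp, 0.83 for 10 genes of 1000 to 1500 bp, 0.55 for 10 genes of 1500 to 2000 bp and -0.30 for Rpn1 and Rpn2 at over 3000 bp. Spearman's rho between excess and exonic length was -0.78 over the 31 members and -0.84 over 8238 genes, as a description across genes of the same libraries. The 13 tested core genes have the shorter transcripts, 815 to 1215 bp of exon. Replicate 1 at 3 d was the lowest of the 3 for 28 of 31 members. Tests and particle levels that use 3 d males are therefore given with and without replicate 3, a choice made after seeing the data.

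**Figure D1:**
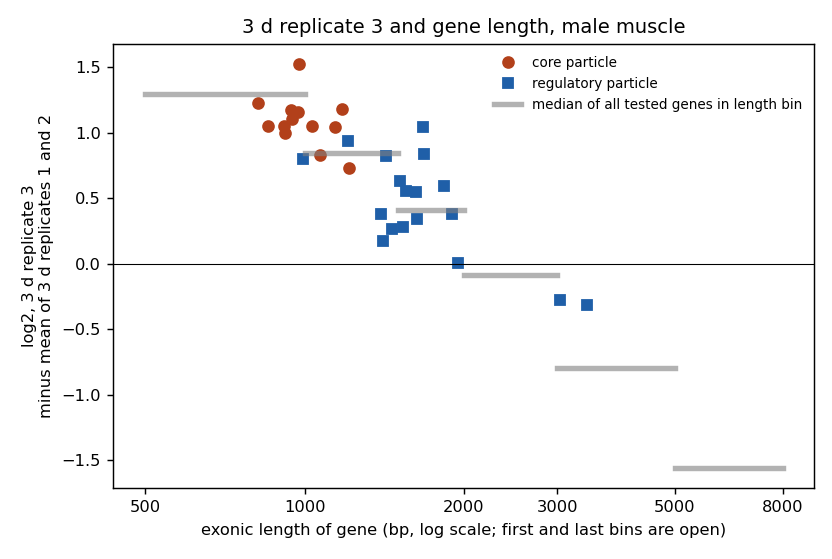
Exonic length in bp (log axis) against the log2 level of 3 d replicate 3 minus the mean of 3 d replicates 1 and 2, in male muscle. Circles are core genes, squares regulatory genes and grey bars the medians of all tested genes in each length bin, which fall from 1.29 under 1000 bp to -1.56 at 5000 bp and more.

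Transcript levels of the proteasome were highest in the oldest male muscle. The mean log2 level of the 13 core genes was 8.23 ± 0.65 in 3 d muscle, 8.04 ± 0.07 in 15 d muscle, 8.20 ± 0.03 in 30 d muscle and 8.52 ± 0.08 in 45 d muscle, and that of the 18 regulatory genes 8.16 ± 0.27, 8.20 ± 0.06, 8.38 ± 0.05 and 8.66 ± 0.10 at the same ages (SD, n = 3 libraries each). Without replicate 3 the 3 d means were 7.87 ± 0.24 for core and 8.01 ± 0.12 for regulatory genes (SD, n = 2), so that the core mean at 3 d lay above that at 15 d with the library and below it without. For both particles the mean at 30 d stood above that at 15 d, and the mean at 45 d above that at 30 d. Replicate 3 gives the core mean at 3 d its wide spread. As a share of all reads the 31 tested genes took 0.162% and 0.190% in 3 d replicates 1 and 2 and 0.242% in replicate 3, 0.302% to 0.331% at 15 d, 0.375% to 0.404% at 30 d and 0.474% to 0.541% at 45 d. The 20 most abundant genes of each library took 34.9% to 40.9% of its reads at 3 d and 13.9% to 15.5% at 45 d. The part of this in the members' share of reads was not tested.

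**Figure D2:**
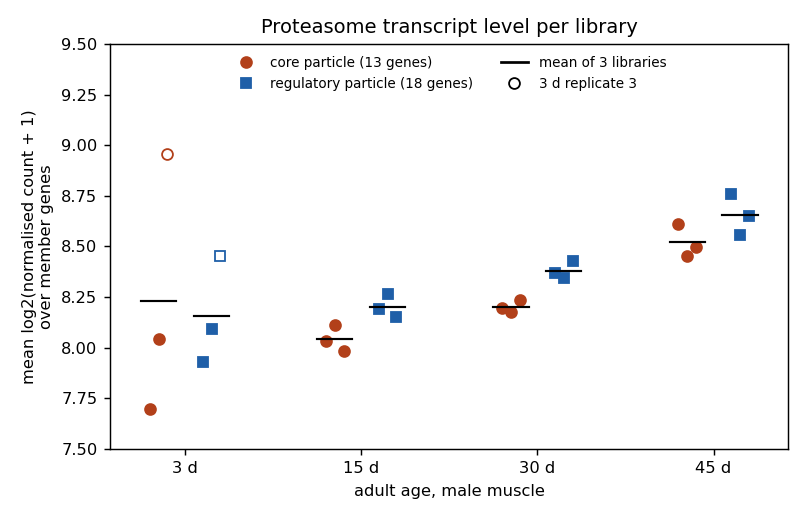
Mean log2(normalised count + 1) over the 13 core genes (circles) and 18 regulatory genes (squares) in each male library, by adult age in d, with lines at the mean of 3 libraries. Open symbols mark 3 d replicate 3, whose core mean lies above that of every other male library.

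With all libraries, 9 regulatory genes and 0 core genes rose at 45 d against 3 d, where 8.41% of 8393 genes were called higher (limma). A fit of the 3 and 45 d libraries alone called 1 member in place of these 9. The scaffold gene Rpn2 had 402, 479 and 353 normalised counts at 3 d, 502, 516 and 501 at 15 d, 622, 620.4 and 662 at 30 d and 882, 742 and 810.2 at 45 d. Every 45 d library lay above every younger one, and the log2 difference between 45 and 3 d was 0.99 ± 0.14 (SE, limma adjusted p = 5.02e-04). The lid gene Rpn8 had 235, 263 and 302 normalised counts at 3 d, 273, 312 and 276 at 15 d, 343, 351 and 375 at 30 d and 526, 443 and 464 at 45 d. Its levels overlapped between 3 and 15 d and then separated, with a log2 difference of 0.84 ± 0.14 between 45 and 3 d (limma adjusted p = 0.0015). The lid gene Rpn3 had 200.4, 224 and 320.0 normalised counts at 3 d, 287, 297 and 299 at 15 d, 338, 346 and 395 at 30 d and 472, 424 and 459 at 45 d. It rose by 0.89 ± 0.17 on the log2 scale (limma adjusted p = 0.00372). The others were the ATPase genes Rpt3 (0.81), Rpt5 (0.70) and Rpt6 (0.64), the scaffold gene Rpn1 (0.72) and the lid genes Rpn6 (0.51) and Rpn5 (0.44). The median log2 difference was 0.21 over core genes, 0.47 over regulatory genes and 0.07 over all tested genes.

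Without replicate 3 at 3 d, 12 core and 17 regulatory genes rose at 45 d against 3 d, where 23.7% of 8364 genes were called higher. The median log2 difference was then 0.60 in both particles. Prosbeta5 had 259.5 and 402 normalised counts in the remaining 3 d libraries and 668 in replicate 3, then 319.6, 369 and 317 at 15 d, 463, 512 and 517 at 30 d and 719, 629 and 642 at 45 d. The excluded library overlapped the 45 d group and the remaining 3 d libraries did not, and the log2 difference without it was 1.03 ± 0.14 (limma adjusted p = 1.26e-05). Prosbeta1 had 225, 294 and 533 normalised counts at 3 d, 289, 319.9 and 255 at 15 d, 360.2, 356 and 361 at 30 d and 540.0, 415 and 485 at 45 d. Its log2 difference was 0.54 with all libraries, where it was not called, and 0.89 without replicate 3. Prosbeta2 had 213, 295 and 521 normalised counts at 3 d, 294, 317 and 279.7 at 15 d, 276, 284 and 283 at 30 d and 388, 318 and 343 at 45 d. Its log2 difference was the smallest of the catalytic genes, 0.12 with all libraries, where it was not called, and 0.47 without replicate 3. Of the regulatory genes Rpn3 (1.08) and Rpt3 (1.00) had the largest differences without replicate 3. The members that were not called without it were Prosalpha2, an alpha-ring gene, at 0.23 and Rpn7, a lid gene, at 0.11. Across the 31 members the log2 difference between 45 and 3 d had a Spearman's rho with exonic length of 0.52 with all libraries and 0.13 without replicate 3.

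**Figure D3:**
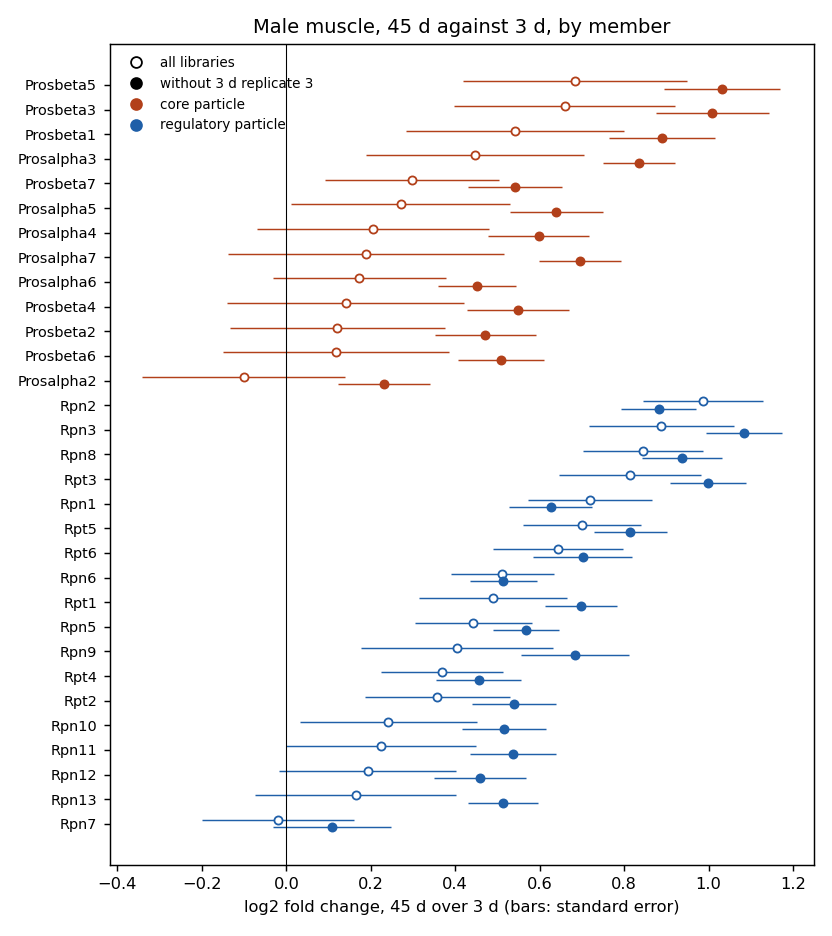
Log2 fold change of each of the 31 members in male muscle, 45 d over 3 d, with all libraries (open) and without 3 d replicate 3 (filled), core genes above and regulatory genes below, and bars for the standard error. Without that library 29 of 31 members were called higher, and Prosalpha2 (0.23) and Rpn7 (0.11) were not.

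The comparison of 45 with 15 d does not use the 3 d libraries except through the shared estimate of spread. All 31 members had positive log2 differences, with medians of 0.50 over core genes, 0.48 over regulatory genes and -0.01 over all tested genes. The fit of all male libraries called Rpn8 (0.73 ± 0.14, limma adjusted p = 0.0328) and Rpn2 (0.68 ± 0.14, limma adjusted p = 0.0442), where 0.62% of 8393 genes were called higher. With a replicate block 0 members were called. Leaving 3 d replicate 3 out of the fit called 8 core and 16 regulatory genes, where 7.87% of 8364 genes were called higher, and a fit of the compared ages alone called 8 core and 14 regulatory genes, where 7.44% of 8358 genes were. Leaving out any one of the 15 or 45 d libraries while replicate 3 stayed in the fit left 0 members called. All 3 libraries at 45 d lay above all 3 at 15 d for 10 core and 17 regulatory genes, as they did for 15.5% of all tested genes. Rpn10 had 276, 276 and 252.5 normalised counts at 15 d, and 403, 341 and 389.7 at 45 d, so the groups did not overlap. Rpn11 had 184, 204 and 192 normalised counts at 15 d, and 249.6, 208 and 218 at 45 d, with a narrow gap between the groups. Rpn6 had 476, 492 and 447 normalised counts at 15 d, and 581, 534 and 541 at 45 d, and was at 383 to 389 in all 3 libraries at 3 d, replicate 3 included. Prosbeta5 had the largest log2 difference between 45 and 15 d, 0.98, and Prosalpha6 the smallest, 0.05.

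At earlier ages fewer members were called against 3 d. At 30 d against 3 d the regulatory genes Rpn2 (0.64, limma adjusted p = 0.0117) and Rpt3 (0.56, limma adjusted p = 0.0491) rose, where 5.4% of genes were called higher. A count of 2 of 31 members is near that share. Without 3 d replicate 3 the call covered 6 core and 13 regulatory genes, where 20.6% were called higher. Leaving out one library at a time, the count was 1 without 3 d replicate 1, 3 d replicate 2, 30 d replicate 1 or 30 d replicate 2, 0 without 30 d replicate 3 and 19 without 3 d replicate 3. At 15 d against 3 d 0 members were called by limma, edgeR or DESeq2 where limma called 7.97% of genes in either direction, and 1 of 31 had an unadjusted p below 0.05, as did 21.3% of all tested genes. Without 3 d replicate 3, limma called 4 core and 6 regulatory genes higher there, where 14.3% of genes were, and without 3 d replicate 1 it called 1 member. These comparisons share the 3 d libraries. Sums of muscle markers were 46581 to 171899 normalised counts at 3 d (118511 and 171899 without replicate 3) and 30613 to 32336 at 45 d, eye markers 28.8 to 858 at 3 d and 1.81 to 11.5 at 45 d, and fat body markers 7810 to 20371 at 3 d (20371 and 18551 without replicate 3) and 25185 to 30140 at 45 d. Their part in the differences from 3 d was not tested. Between 15 and 45 d fat body markers ran from 21360 to 24135 at 15 d and from 25185 to 30140 at 45 d, and muscle markers from 34959 to 41907 at 15 d and from 30613 to 32336 at 45 d. Neuron markers ran from 2410 to 2551 at 15 d and from 1653 to 1838 at 45 d. Hemocyte markers ran from 2587 to 3054 at 15 d and from 2222 to 2354 at 45 d. The listed ovary marker grk ran from 215 to 267 at 15 d and from 286 to 382 at 45 d. The part of these markers between 15 and 45 d was not tested.

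In female muscle the group means were highest in daw 3'UTR foxo mutants and in miR-252 foxo double mutants. Beside the Atg8a mutants, the mean log2 level of core genes was 7.68 ± 0.08 in daw 3'UTR foxo mutants, 7.49 ± 0.12 in Atg8a mutants, 7.36 ± 0.06 in daw 3'UTR mutants and 7.25 ± 0.11 in WT, and that of regulatory genes 8.02 ± 0.11, 7.86 ± 0.07, 7.66 ± 0.08 and 7.63 ± 0.14 in the same order (SD, n = 3 each). In the miR-252 and foxo set core genes stood at 7.92 ± 0.26 in daw/+ triple mutants, 8.08 ± 0.13 in miR-252 foxo double mutants, 7.78 ± 0.07 in foxo mutants, 7.57 ± 0.14 in miR-252 mutants and 7.87 ± 0.20 in WT. Regulatory genes there stood at 8.13 ± 0.17, 8.31 ± 0.11, 8.05 ± 0.04, 7.90 ± 0.14 and 8.08 ± 0.16. Libraries of one genotype moved the members together. The WT library lettered b here (the WT columns of this set carry no replicate number) was the highest of its 3 for 28 of 31 members, and replicate 2 was the highest for 28 of 31 in daw/+ triple mutants and for 29 of 31 in miR-252 mutants. The foxo libraries were more mixed, with replicates 1, 2 and 3 the highest for 7, 18 and 6 members. The same share over all genes is not given here.

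**Figure D4:**
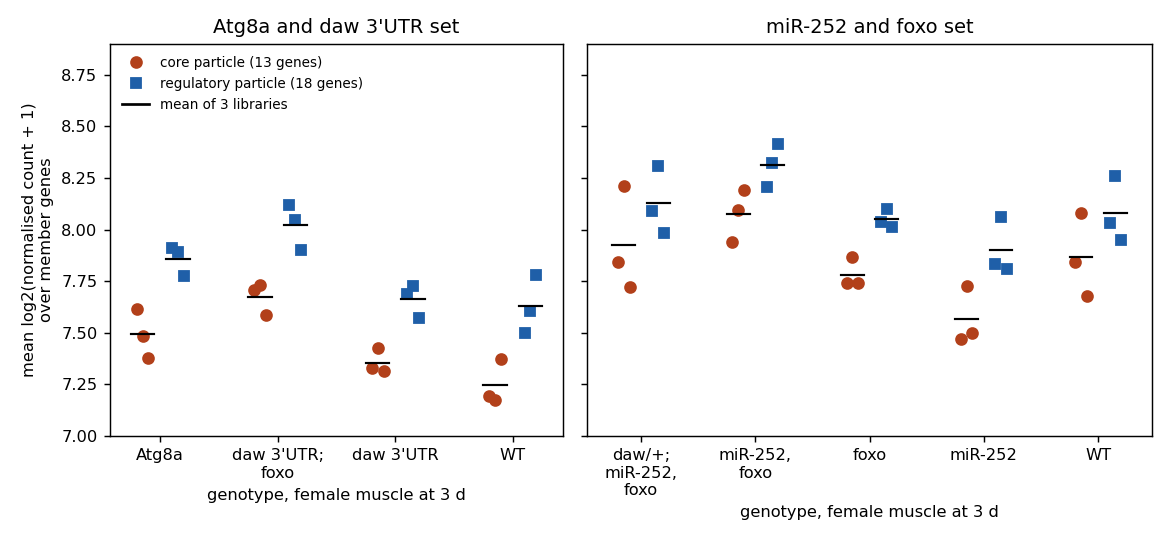
Mean log2(normalised count + 1) over the core genes (circles) and regulatory genes (squares) in each female library at 3 d, by genotype, with lines at the mean of 3 libraries. All 3 daw 3'UTR foxo libraries lie above all 3 WT libraries for both particles, and the miR-252 foxo libraries lie above the foxo libraries.

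In daw 3'UTR foxo mutants 10 core and 16 regulatory genes rose against WT, where 16.7% of 8271 genes were called higher (limma). The median log2 difference was 0.43 over core and 0.41 over regulatory genes, and all 31 were positive. The beta-ring gene Prosbeta4 had 173, 181 and 133 normalised counts in daw 3'UTR foxo mutants and 85.4, 75.1 and 107 in WT. The groups did not overlap and the log2 difference was 0.86 ± 0.16 (limma adjusted p = 6.72e-04), the largest among the members. The alpha-ring gene Prosalpha4 had 197, 194 and 192 normalised counts in daw 3'UTR foxo mutants and 115, 117 and 131 in WT, a log2 difference of 0.68 ± 0.12 (limma adjusted p = 5.18e-04). The lid gene Rpn5 had 335, 314 and 269 normalised counts in daw 3'UTR foxo mutants and 192, 208 and 224 in WT, a log2 difference of 0.55 ± 0.11 (limma adjusted p = 0.00165). Among the catalytic genes, Prosbeta1 had 187, 191 and 176 normalised counts in daw 3'UTR foxo mutants and 125, 127 and 149.9 in WT, and rose by 0.46. Prosbeta2 had 248, 236 and 216 normalised counts in daw 3'UTR foxo mutants and 142, 172 and 211 in WT, and rose by 0.43. Prosbeta5 had 264, 315 and 321 normalised counts in daw 3'UTR foxo mutants and 247, 241 and 289 in WT, where the groups overlapped and it was not called. The other members not called were Prosalpha2, Prosalpha6, Rpn10 and Rpn13. All daw 3'UTR foxo libraries lay above all WT libraries for 10 core and 15 regulatory genes, as they did for 21.5% of all tested genes.

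The count of 26 fell to 12 without WT replicate 1, 16 without WT replicate 2 and 11 without daw 3'UTR foxo replicate 1 or replicate 2, and a fit of the compared groups alone called 14. The share of all genes called in these refits is not given here, so the counts do not show whether calls fell for the members alone. Hemocyte markers summed to 6452 to 8074 normalised counts in daw 3'UTR foxo mutants and 2296 to 2636 in WT, muscle markers to 117139 to 162622 in daw 3'UTR foxo mutants and 84734 to 103658 in WT, and neuron markers to 1007 to 1338 in daw 3'UTR foxo mutants and 1932 to 2332 in WT. Their part in these differences was not tested.

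Against daw 3'UTR mutants the same daw 3'UTR foxo libraries showed 5 core and 9 regulatory genes higher, where 14.4% of genes were called higher. The core genes were Prosalpha4 (0.51), Prosalpha5 (0.43), Prosbeta4 (0.52), Prosbeta2 (0.36) and Prosbeta5 (0.32). Rpn5 had 335, 314 and 269 normalised counts in daw 3'UTR foxo mutants and 200.2, 223 and 196 in daw 3'UTR mutants, a log2 difference of 0.56 ± 0.11 (limma adjusted p = 0.00185). Rpn2 had 441, 428 and 413 normalised counts in daw 3'UTR foxo mutants and 313, 340.1 and 327 in daw 3'UTR mutants, a difference of 0.39 ± 0.08 (limma adjusted p = 0.00265). Both were without overlap between the groups. The lid genes Rpn11 and Rpn6 rose too, by 0.51 and 0.30 on the log2 scale. The count of 14 was 7 without daw 3'UTR replicate 1, 6 without its replicate 3, 6 without daw 3'UTR foxo replicate 1 and 4 without its replicate 2.

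The daw 3'UTR lesion alone gave 0 calls among the members against WT, by limma, edgeR or DESeq2, where limma called 3.12% of genes in either direction. An unadjusted p below 0.05 was seen for 1 of 31 members and 13.9% of all tested genes. Median log2 differences were 0.10 over core and 0.02 over regulatory genes, from -0.11 for Prosbeta5 to 0.34 for Prosbeta4. Their Spearman's rho with exonic length was -0.35 over the members and -0.08 over all genes, and the part of length was not tested. Both comparisons with WT share the WT libraries.

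In Atg8a mutants, which lack most Atg8a transcript, 2 core and 2 regulatory genes rose against WT, where 5.16% of 8271 genes were called higher. Rpn8 had 262, 231 and 242 normalised counts in Atg8a mutants and 148, 183 and 189 in WT, with no overlap and a log2 difference of 0.51 ± 0.12 (limma adjusted p = 0.0161). Rpn2 had 423, 452 and 423 normalised counts in Atg8a mutants and 343, 335 and 359.8 in WT, a difference of 0.32 ± 0.08 (limma adjusted p = 0.0237). Prosbeta1 had 229, 189 and 157 normalised counts in Atg8a mutants and 125, 127 and 149.9 in WT, a difference of 0.50 ± 0.14 (limma adjusted p = 0.0345), and Prosalpha5, an alpha-ring gene, rose by 0.41 (limma adjusted p = 0.0468). All 31 members had positive log2 differences, with medians of 0.26 over core and 0.25 over regulatory genes, and 5 core and 8 regulatory genes were without overlap, as were 15.1% of all tested genes in that direction. The ubiquitin receptor gene Rpn10 had 208, 235 and 215 normalised counts in Atg8a mutants and 193, 172 and 227 in WT, with overlap, and Rpn1 (0.01) had the smallest difference. A fit of Atg8a mutants and WT alone called 1 member in place of 4. Leaving out WT replicate 1 or Atg8a replicate 1 left 0 members called, leaving out Atg8a replicate 2 left 1 and leaving out WT replicate 2 left 2. Gut markers summed to 8521 to 14554 normalised counts in Atg8a mutants and 5420 to 8377 in WT, and hemocyte markers to 1448 to 1881 in Atg8a mutants and 2296 to 2636 in WT. Fat body markers summed to 14640 to 20300 in Atg8a mutants and 21842 to 28101 in WT. The part of these markers was not tested.

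Loss of foxo alone gave no call among the members. In foxo mutants against WT 0 of 31 members were called by limma, edgeR or DESeq2, where limma called 11.8% of 8357 genes in either direction. Of the 31, 1 (Rpt4) had an unadjusted p below 0.05, as did 25.9% of all tested genes. The median log2 difference was -0.06 over core and -0.02 over regulatory genes, from -0.33 for Rpt4 to 0.19 for Rpn5. Prosbeta5 had 288, 282 and 263 normalised counts in foxo mutants and 297, 324 and 252.5 in WT. Rpn11 had 194, 172 and 181 normalised counts in foxo mutants and 174, 230.5 and 149.6 in WT, and Rpn6 had 395, 388 and 403 in foxo mutants and 427, 439 and 375 in WT. In each the groups overlapped. Every foxo library lay above every WT library for 2 regulatory genes, Rpn5 and Rpn9. Rpn5 had 313, 311 and 314 normalised counts in foxo mutants and 272, 288 and 260 in WT. Every foxo library lay below every WT library for 2 others, Rpt4 and Rpn13. Rpt4 had 199, 226 and 206 normalised counts in foxo mutants and 254, 301 and 241 in WT. Of the core genes, 0 of 13 were without overlap. The share of all tested genes without overlap is not given here.

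Under axenic culture the authors' deposited table of foxo mutants against WT listed 0 of 31 members called and 0 at an unadjusted p below 0.05, where 6.25% of 9371 genes were called in either direction. In the authors' deposited table, median log2 fold changes were -0.03 over core and 0.14 over regulatory genes, and all tested genes had a median of 0.01. The authors' deposited table listed positive values for 4 of 13 core genes and 16 of 18 regulatory genes, from -0.15 for Prosalpha6 to 0.29 for Prosalpha5, and the smallest adjusted p among the members was 0.563. Spearman's rho of these values with exonic length was 0.32 over the members and 0.17 over all genes. The part of length in the difference between particles was not tested. Rpn8 stood at 0.26, Rpn6 at 0.22, Prosbeta1 at 0.17 and Prosbeta5 at -0.07 in the authors' deposited table. For foxo mutants and WT on conventional medium the authors' deposited table gave medians of -0.06 over core and -0.02 over regulatory genes and 0 calls, where 10.6% of 9504 genes were called in either direction. The difference between the culture conditions was not tested, because no values per library are used here for the axenic samples.

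In miR-252 mutants 2 beta-ring genes fell against WT and 0 regulatory genes were called, where 2.51% of 8357 genes were called lower. Prosbeta3 (chromosome 3R, 9005313 to 9006226, minus strand) had 140, 144 and 121 normalised counts in miR-252 mutants and 217, 254 and 165 in WT, a log2 difference of -0.63 ± 0.15 (limma adjusted p = 0.0182). Prosbeta7 (chromosome 3R, 5357012 to 5358364, minus strand) had 263, 292 and 245.5 normalised counts in miR-252 mutants and 354, 408 and 328 in WT, a difference of -0.44 ± 0.12 (limma adjusted p = 0.0463). In neither did the groups overlap. The median log2 difference was -0.30 over core genes and -0.16 over regulatory genes. Its Spearman's rho with exonic length was 0.36 over the members and 0.11 over all genes, and the part of length was not tested. Prosbeta5 had 255, 288 and 252.3 normalised counts in miR-252 mutants and 297, 324 and 252.5 in WT, and Rpn10 had 212, 277 and 256 in miR-252 mutants and 268, 332 and 292 in WT. In both the groups overlapped, and neither was called. Leaving out WT library a, WT library b or miR-252 replicate 3 left 0 members called, leaving out miR-252 replicate 1 left 1 and leaving out WT library c gave 3.

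The miR-252 foxo double mutants showed 9 core and 9 regulatory genes higher than miR-252 mutants, where 9.45% of genes were called higher. All 31 log2 differences were positive, with medians of 0.48 over core and 0.40 over regulatory genes. Prosbeta3 had 227, 255 and 246 normalised counts in the double mutants and 140, 144 and 121 in miR-252 mutants, a difference of 0.84 ± 0.15 (limma adjusted p = 6.36e-04). Prosalpha5 had 243, 253 and 278 normalised counts in the double mutants and 158, 169 and 155 in miR-252 mutants, a difference of 0.67 ± 0.12 (limma adjusted p = 6.85e-04). The catalytic gene Prosbeta5 had 375, 389.8 and 415 normalised counts in the double mutants and 255, 288 and 252.3 in miR-252 mutants, a difference of 0.57 ± 0.13 (limma adjusted p = 0.00395). In all 3 genes each double mutant library lay above each miR-252 library. Of the lid genes, Rpn5 had 321, 385 and 415 normalised counts in the double mutants and 222, 262 and 242 in miR-252 mutants (0.62 ± 0.11, limma adjusted p = 8.01e-04), and Rpn9 had 298, 279 and 351 in the double mutants and 213, 215 and 191 in miR-252 mutants (0.58 ± 0.11, limma adjusted p = 0.00118). The deubiquitinase gene Rpn11 had 187, 192 and 203 normalised counts in the double mutants and 138, 154 and 115 in miR-252 mutants, and rose by 0.53. The smallest difference, 0.21, was that of Rpn6, with 418, 455 and 491 normalised counts in the double mutants and 370.0, 427 and 378 in miR-252 mutants. The count of 18 was 11 without miR-252 replicate 1, 8 without its replicate 3, 11 without double mutant replicate 2 and 8 without its replicate 3. Hemocyte markers summed to 5561 to 6743 normalised counts in double mutants and 3103 to 3451 in miR-252 mutants, and gut markers to 4608 to 5581 in double mutants and 7170 to 9463 in miR-252 mutants. Neuron markers summed to 988 to 1086 in double mutants and 1400 to 1607 in miR-252 mutants. Their part was not tested.

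Against WT the same double mutant libraries had median log2 differences of 0.22 over core and 0.26 over regulatory genes. Called higher were 2 of 13 core genes, near the 12.4% of all genes, and 4 of 18 regulatory genes. These were Prosbeta5 (0.44, limma adjusted p = 0.0153), Prosalpha5 (0.36), Rpn9 (0.48, limma adjusted p = 0.00302), Rpn5 (0.44), Rpt3 (0.45) and Rpn1 (0.32). The count of 6 was 3 without WT library a, 10 without WT library b, 2 without WT library c, 3 without double mutant replicate 2 and 2 without its replicate 3. Against foxo mutants, Rpt4 (chromosome X, 6289470 to 6291245, minus strand) had 295, 340.2 and 358 normalised counts in the double mutants and 199, 226 and 206 in foxo mutants, a difference of 0.65 ± 0.14 (limma adjusted p = 0.00687). Prosbeta5 had 375, 389.8 and 415 normalised counts in the double mutants and 288, 282 and 263 in foxo mutants, a difference of 0.50 ± 0.13 (limma adjusted p = 0.0191). These were the calls among the members, 2 of 31, near the 4.74% of all genes called higher. All 31 log2 differences were positive, with medians of 0.27 over core and 0.24 over regulatory genes. The count of 2 was 4 without double mutant replicate 1 and 1 without its replicate 3 or foxo replicate 3.

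One mutant copy of daw on top of the double mutant gave 0 calls among the members, by limma, edgeR or DESeq2, where limma called 5.09% of genes in either direction. An unadjusted p below 0.05 was found for 6 of 31 members and 18.9% of all tested genes. Of the 31 log2 differences of daw/+ triple mutants against double mutants 29 were negative, with medians of -0.15 over core and -0.18 over regulatory genes with -0.37 for Rpt4 at the low end. Prosbeta5 had 277, 379 and 282 normalised counts in triple mutants and 375, 389.8 and 415 in double mutants, so replicate 2 of the triple mutants lay within the range of the double mutants. Without that replicate 1 member was called. Against WT the triple mutants had 0 calls by all 3 tools, where limma called 15.9% of genes in either direction, and 1 of 31 members had an unadjusted p below 0.05, as did 29.2% of all tested genes.

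The effect of losing foxo thus had values in 4 settings, shown in the plot by background. The medians of the log2 differences were 0.30 over core and 0.34 over regulatory genes when foxo was lost in the daw 3'UTR background, and 0.48 and 0.40 in the miR-252 background. They were -0.06 and -0.02 in the WT background and -0.03 and 0.14 in the authors' deposited table of axenic flies. The difference between the miR-252 and the WT background could be tested in one fit. It was positive for all 31 members, with medians of 0.55 over core and 0.43 over regulatory genes, and 3 core and 1 regulatory gene were called, where 1.18% of 8357 genes were called higher. Prosbeta3 had a difference of 1.10 ± 0.21 (limma adjusted p = 0.00764): its mean levels differed by 0.84 between double and miR-252 mutants and by -0.26 between foxo mutants and WT on the log2 scale. Prosbeta7 (0.78 ± 0.17, limma adjusted p = 0.0199), Prosalpha5 (0.70 ± 0.17, limma adjusted p = 0.0385) and Rpt4 (0.78 ± 0.20, limma adjusted p = 0.0457) followed. Leaving out one library at a time left Prosbeta3 called in 12 of 12 fits and the number of called members between 1 and 5. It was 1 without WT library b, miR-252 replicate 1 or 3, foxo replicate 1 or 3, or double mutant replicate 2 or 3, and 2 without WT library a or foxo replicate 2. The daw 3'UTR background stands in another table, scaled separately, and its difference from the WT background was not tested.

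**Figure D5:**
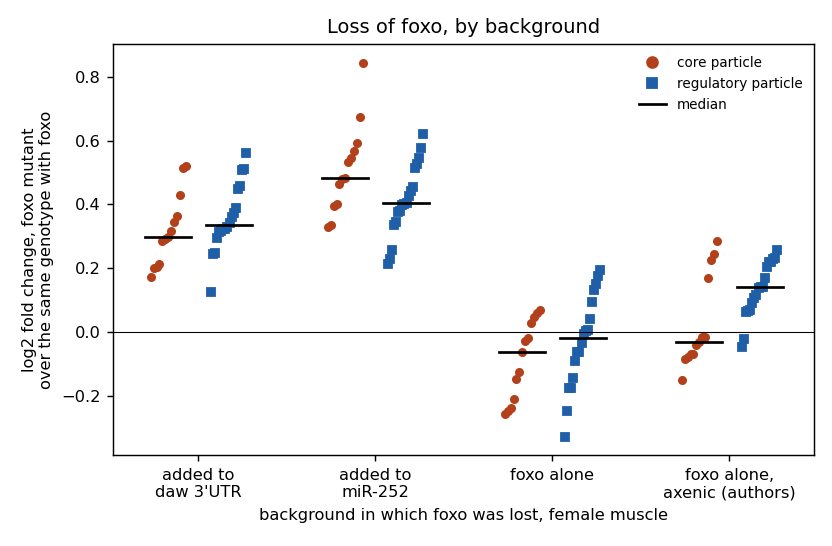
Log2 fold change of each member in foxo mutants over the same genotype with foxo, in the daw 3'UTR, miR-252 and WT backgrounds and under axenic culture (authors' deposited table), for core genes (circles) and regulatory genes (squares), with lines at the medians. Medians lie at 0.30 to 0.48 in the daw 3'UTR and miR-252 backgrounds and at -0.06 to 0.14 where foxo alone was lost.

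A set of 3 comparisons that share no library can be set side by side: male 45 d against 3 d without replicate 3 (29 members higher), daw 3'UTR foxo mutants against WT (26) and miR-252 foxo mutants against miR-252 mutants (18). Their references are unlike, and other choices gave shorter lists. With all male libraries 9 members were higher. Against daw 3'UTR mutants 14 were higher in daw 3'UTR foxo mutants, and against WT 6 were higher in miR-252 foxo mutants. The overlaps below hold for this choice only. The lists of the male and the daw 3'UTR foxo comparison share 25 members, 86.2% of the first and 96.2% of the second, and those of the daw 3'UTR foxo and the miR-252 foxo comparison share 17, 65.4% and 94.4%. Those 17 were called higher in all 3, namely Prosalpha4, Prosalpha5, Prosalpha7, every beta-ring gene except Prosbeta1 and Prosbeta5, Rpn1, Rpn2, Rpn5, Rpn8, Rpn9, Rpn11, Rpt1, Rpt4 and Rpt6. Prosalpha2 was called in none of the 3. Lists of 29, 26 and 18 out of the same 31 tested members must share most of their members by size alone. These overlaps therefore do not measure how alike the comparisons are. Of 6346 genes tested in all 3 comparisons and matched between tables by ID or symbol, 23.6% were called higher in the male, 16.5% in the daw 3'UTR foxo and 9.05% in the miR-252 foxo comparison, 7.66% in both of the first pair, 5.94% in both of the mutant comparisons and 2.96% in all 3.

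Other genes of the ubiquitin-proteasome pathway, a list of 25 of which 24 were tested, changed in part in the same comparisons. In males at 45 d against 3 d, 6 rose: the segregase gene TER94 (1.05), the proteasome activator gene REG (0.86), the ubiquitin-activating enzyme gene Uba1 (0.81), the shuttle receptor genes Ubqn (0.77) and rngo (0.68), and Plap. The segregase cofactor gene Npl4 fell by 1.21 on the log2 scale. REG had 115, 133 and 201 normalised counts at 3 d, 210.6, 189 and 178 at 15 d, 262, 246 and 252.5 at 30 d and 262, 275 and 260.1 at 45 d. The share of all genes called higher there was 8.41%, and 880 of 8393 genes were called lower. Without 3 d replicate 3, 18 of the 24 rose and 1 fell, where 23.7% of all genes were called higher and 2094 of 8364 lower. The activator gene cnc was among those that rose, by 0.39. In daw 3'UTR foxo mutants against WT, 6 of 24 rose, where 16.7% of all genes were called higher. Among them were Sem1 (0.97), REG (0.64), the proteasome deubiquitinase gene Usp14 (0.57), Uba1 (0.48) and TER94 (0.37). Sem1 encodes a small lid subunit outside the naming rule. Npl4 (-1.46) and ntc (-0.79) fell, 2 of 24, a smaller share than the 1579 of 8271 genes called lower. In miR-252 foxo mutants against miR-252 mutants, where 9.45% of all genes were called higher, 6 rose, among them Uba1 (0.47), TER94 (0.42) and the assembly factor gene Pomp (0.41). There Npl4 fell by 0.75, 1 of 24, where 793 of 8357 genes were called lower. In foxo mutants against WT, where 11.8% of all genes were called in either direction, REG (0.50) rose, and Npl4 (-0.61), Pomp (-0.41) and the polyubiquitin gene Ubi-p5E (-1.62) fell. Ubi-p5E was also called lower against WT in daw 3'UTR, miR-252, miR-252 foxo and daw/+ triple mutants, so its fall is not particular to loss of foxo. Pomp had 144, 150.0 and 118 normalised counts in foxo mutants and 169, 214 and 166 in WT, without overlap. CG5071 and CG5079 lie inside Npl4 on the other strand. In miR-252 foxo mutants against WT, REG and Uba1 rose, 2 of 24, a smaller share than the 12.4% of all genes called higher. Npl4, Ubi-p5E and cnc fell, cnc by 0.28 on the log2 scale. These 3 of 24 are near the share of all genes called lower, 1074 of 8357. In daw/+ triple mutants against WT, where 0 subunit genes were called, Npl4, Ubi-p5E and cnc fell as well, 3 of 24. Of all genes 683 of 8357 were called lower there. The part of cnc in the subunit levels was not tested.

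The Ago1 precipitates of whole flies held less subunit RNA than their inputs. In the authors' deposited table at 3 d, all 13 core genes and 11 of 18 regulatory genes were lower in the precipitates, where 8.19% of 10880 genes were called lower, with median log2 fold changes of -0.73 over core, -0.49 over regulatory and -0.02 over all genes. Values of the 31 tested genes in the authors' deposited table at 3 d ran from -0.94 for Prosbeta6 to -0.14 for Rpn8, and 9 of 10 base genes but 2 of 8 lid genes were called. At 30 d the authors' deposited table called 8 core genes and 1 regulatory gene, Rpn13, lower, where 2.09% of 11110 genes were called lower, with medians of -0.80, -0.56 and -0.13. The enrichment followed length in these tables too: Spearman's rho with exonic length was 0.62 over the members and 0.41 over all genes at 3 d, and 0.47 and 0.37 at 30 d. In the authors' deposited table at 3 d, 2067 genes under 1000 bp had a median of -0.43 and the 9 members among them -0.72. Between 1500 and 2000 bp the median was -0.07 over 1589 genes and -0.48 over 10 members. The paralogs, at 24.5 (Rpt3R), 48.1 (Rpt6R) and 24.9 (Prosbeta2R2) mean normalised counts at 3 d in the authors' deposited table, had measurable levels in whole flies of both sexes. In that deposited table Rpt6R was called lower in the precipitates at 3 d (-1.04), while at 30 d it stood at -0.33 and was not called. The authors' deposited tables called neither Rpt3R nor Prosbeta2R2 at either age.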

How the data were processed

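PolyA RNA from fly muscle and from whole-fly Ago1 precipitates and inputs was sequenced with NEBNext Ultra libraries, per the labels' protocols. The submitters' processing notes name STAR, HTSeq, DESeq and dm6, without versions. The authors deposited a signal, counts divided by size factors, for 3 tables of muscle libraries, and comparison tables with log2 fold changes and p-values for axenic foxo, conventional foxo and Ago1. Whole reads could be recovered from 100% of the deposited values (tolerance 0.01). The deposited counts per library bound the precision of a level.

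The main test was limma 3.58.1 (R 4.3.3, with trend) on log2(value + 1), for genes with a mean of at least 10, every group of that table fitted together, Benjamini-Hochberg over all genes tested (8393, 8271 and 8357). Fold changes on this scale understate those of low genes. Each test script was tested on simulated data. Exonic lengths came from the Ensembl annotation, for 95.6% to 99.2% of genes in each table. Correlations of deviations between same-numbered libraries of different groups ran from -0.13 to 0.28. They were over 0.1 in 0 of 18 pairs of the male table and 5 of 18 in each of the others. Replicate numbers were not taken as pairs in the main test. A batch shared by number in the female sets was not tested.

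Per library values were meant for Prosbeta1, Prosbeta2, Prosbeta5, Rpn6, Rpn10 and Rpn11. In each comparison they were also meant for up to 3 core and 3 regulatory genes with the smallest adjusted p. The Results print them for part of these genes and not in every comparison. Which of them are printed, and the others shown, was chosen after their values were seen. Members, lists and tests were chosen with earlier results of these data known. Alternatives were another pseudocount (8), no filter, upper-quartile scaling, edgeR 4.0.16 and DESeq2 1.42.0 on the recovered reads, the compared groups alone, a replicate block, and leaving out each library. No sequences or promoter motifs were analysed here.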

Additional observations from a re-analysis of the deposited data

Results flagged for a closer look

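The effect of losing foxo on 4 members differed between the miR-252 and the WT background by a test of the difference itself (limma, adjusted over 8357 genes). The difference on the log2 scale was 1.10 for Prosbeta3 (adjusted p = 0.00764), 0.78 for Prosbeta7 (adjusted p = 0.0199), 0.70 for Prosalpha5 (adjusted p = 0.0385) and 0.78 for Rpt4 (adjusted p = 0.0457). In Prosbeta3 the miR-252 mutants were the low group (121 to 144 normalised counts). In Prosbeta7 the miR-252 mutants held the lowest value (245.5 to 292) but overlapped the foxo mutants (290 to 330). In Rpt4 the foxo mutants held the lowest value (199 to 226) but overlapped the miR-252 mutants (216 to 280). In Prosalpha5 the double mutants were the high group (243 to 278). The miR-252 mutants there (155 to 169) lay below WT (185 to 222) and foxo mutants (186 to 205). Prosbeta3 passed under each of 18 alternatives. None of Prosbeta7, Prosalpha5 and Rpt4 was called in 7 of the 12 fits that left out 1 library, and Rpt4 also missed with edgeR (adjusted p = 0.0532) and with upper-quartile scaling (adjusted p = 0.0564).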

How the results depend on the processing

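Counts below are of the 31 tested members. For these refits, and for those in the Results without a printed share, the share of all genes called is not given. The counts therefore do not show whether calls changed for the members alone. At 30 d against 3 d the count of 2 was 1 with edgeR, 6 with DESeq2, 0 with the compared groups alone and 1 with the replicate block. At 45 d against 3 d the count of 9 was 1 with the compared groups alone, and at 45 d against 15 d the count of 2 was 1 with no filter, 1 with upper-quartile scaling, 9 with DESeq2, 22 with the compared groups alone and 0 with the replicate block. With the compared groups alone, 4 became 1 for Atg8a mutants, 26 became 14 for daw 3'UTR foxo mutants against WT, 2 became 1 for miR-252 mutants (1 also with edgeR), and 2 became 4 for miR-252 foxo against foxo mutants. Upper-quartile scaling gave 9 in place of 14 for daw 3'UTR foxo against daw 3'UTR mutants and 3 in place of 6 for miR-252 foxo mutants against WT. The cause was not tested. No scaling moved the median of all genes by over 0.1.

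Leaving out one library gave 0 to 10 calls at 15 d, 0 to 19 at 30 d and 6 to 29 at 45 d against 3 d, 0 to 24 at 45 d against 15 d, 0 to 4 for Atg8a, 0 to 0 for daw 3'UTR, 11 to 27 for daw 3'UTR foxo against WT and 4 to 15 against daw 3'UTR, 0 to 3 for miR-252, 0 to 0 for foxo and for daw/+ triple mutants against WT, 2 to 10 for miR-252 foxo against WT, 1 to 4 against foxo and 8 to 23 against miR-252, 0 to 1 for triple against double mutants, and 1 to 5 for the difference of the foxo effects, whose alternatives were chosen after seeing the data. A replicate block gave 0 at 15 d, 8 at 45 d against 3 d, 3 for Atg8a, 0 for daw 3'UTR, 20 and 10 for daw 3'UTR foxo against WT and daw 3'UTR, 3 and 20 for miR-252 foxo against foxo and miR-252, and 0 for triple against double mutants. No paired analysis was possible because the WT columns carry no numbers for comparisons with WT in the miR-252 and foxo table. Of 569 alternatives of 42 results on single members, 459 kept their call, 110 missed the threshold and 0 changed direction. Depth of 2358162 to 4078819 reads per library leaves the paralogs, with at most 21 reads, without a comparison.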
